A study of Mus musculus with 2 samples.

Results

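The cytosolic translation initiation and elongation factors were examined in single-cell RNA sequencing of Terc-/- mouse embryonic stem cells. The factors were the gene columns whose symbols begin with Eif1 to Eif6, Eef1 or Eef2. Genes named Eif2ak, Eef2k, Eef1akmt, Eif1ad or Eif4enif and pseudogenes named as such were left out. The eIF4E-binding proteins (Eif4ebp1, Eif4ebp2 and Eif4ebp3), which are regulators rather than factors, were kept and are counted as factors below. This gave 57 genes of the 38458 gene columns. One of them, Eif2c5, is named for an argonaute-like gene rather than a translation factor, and it had 0 UMIs in either library. The samples were 2 libraries of line DKO741, an E14 embryonic stem cell line in which both copies of Terc, the RNA template of telomerase, had been removed. One library was made at PD100 (time point 100 passage) and the other at PD800 (time point 800 passage), when the culture was maintained without telomerase by alternative lengthening of telomeres (ALT). Both libraries lack Terc, both come from 1 line grown feeder-free for the experiments, and no library of cells with Terc was compared here. Cells were captured with inDrops, a droplet method in which unique molecular identifiers (UMIs) tell captured transcripts apart.

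Cells with at least 1000 UMIs and at most 20% mitochondrially encoded UMIs were kept, 814 cells with 1826233 UMIs in PD100 and 900 cells with 2580963 UMIs in PD800. Terc was at 0 UMIs in either library, where the limit of 3 counts for a gene at 0 corresponds to 1.64 CPM (UMIs scaled to a common library total) in PD100 and 1.16 CPM in PD800. Without a library of cells with Terc, this count cannot show whether the method would capture it, and it is no test of its loss. All 10 embryonic stem cell markers examined (Pou5f1, Nanog, Esrrb and others) had UMIs in each library. With 1 library per time point, a difference between time points and a difference between library preparations cannot be told apart. No test was therefore made. Every interval is a 95% interval for counting error only, apart from those of medians, which are taken over genes.

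Translation of a messenger RNA begins when eIF2 brings the initiator tRNA to the small ribosomal subunit, where eIF1, eIF1A, eIF3 and eIF5 help it to scan for a start codon. The messenger RNA is brought in through its cap by eIF4E, the scaffold eIF4G and the helicase eIF4A, and the 4E-binding proteins compete with eIF4G for eIF4E. Elongation then needs eEF1A, which delivers aminoacyl-tRNAs, its exchange factor eEF1B, the translocase eEF2 and eIF5A, which carries the modified residue hypusine and helps ribosomes through difficult peptide bonds. Embryonic stem cells are known for a low rate of protein synthesis relative to their differentiated progeny.

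The factors together had 55701 UMIs in PD100 and 57341 in PD800. Scaled to the library totals, PD100 stood at 30500.5 CPM (30248 to 30755, exact Poisson interval) and PD800 at 22217 CPM (22035 to 22400), or 3.05% and 2.22% of all UMIs. The log2 ratio of PD800 over PD100 was -0.46 (-0.47 to -0.44, exact conditional interval). Eif5a was part of this difference: without it the log2 ratio of the sum was -0.36 (-0.37 to -0.34), which is -0.01 relative to the median of all tested genes. A tested gene is one with at least 50 UMIs over both libraries, and the median log2 ratio over the 6984 such genes was -0.34 after scaling to library totals. Ribosomal proteins, the other abundant part of the translation apparatus, stood at 146377 CPM in PD100 and 149190 CPM in PD800, a log2 ratio of 0.03 (0.02 to 0.03) for 87 genes. Within this sum, Rpl36a alone was at 750 CPM in PD100 and 4941 CPM in PD800, a larger difference than that of the sum. Independent of any scaling between libraries, the factors made up 17.2% (17.1 to 17.4, exact binomial) of the UMIs of factors and ribosomal proteins in PD100 and 12.96% (12.9 to 13.1) in PD800.

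Of the 57 genes, 49 had at least 50 UMIs, 7 had between 1 and 49, and Eif2c5 had none. The ratio lay below 0 on the log2 scale for 39 of the 49 and above 0 for 10. The median of all tested genes was itself -0.34, so this split alone does not set the factors apart. Against that median, the intervals of 22 factors lay below it, those of 13 above it, and those of 14 included it. The median of the 49 factors was -0.47 (-0.65 to -0.27), or -0.13 relative to the median of all tested genes. At least 2-fold lower in PD800 were 6 factors (12.2%), beside 16.9% of all tested genes: Eif4ebp2, Eif5a, Eif4g1, Eif3a, Eif2b4 and Eef2. Eif3e was the 1 factor (2.04%) at least 2-fold higher, beside 9.22% of all tested genes. Relative to the median of all tested genes, Eif3e and Eif4e were at least 2-fold higher (4.08%, beside 13.9% of all) and Eif4ebp2 at least 2-fold lower (2.04%, beside 7.79% of all). Scaling by the median of ratios brings the median of all tested genes close to 0. It applies nearly the same shift, so its split of 2 higher and 1 lower repeats the relative count and is no separate check. It turned 8 of the 39 ratios below 0 to above 0 and left the summed ratio at -0.12. Scaling to totals without mitochondrially encoded genes gave 2 higher (4.08%, beside 9.74% of all) and 3 lower (6.12%, beside 15.0% of all). Under these scalings the share of factors past the 2-fold line lay below that of all tested genes, while their ratios spanned -2.36 to 1.25 with the library totals. Genes near the limit of 50 UMIs cross this line more readily by counting error, and the shares were not matched for UMIs.

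**Figure D1:**
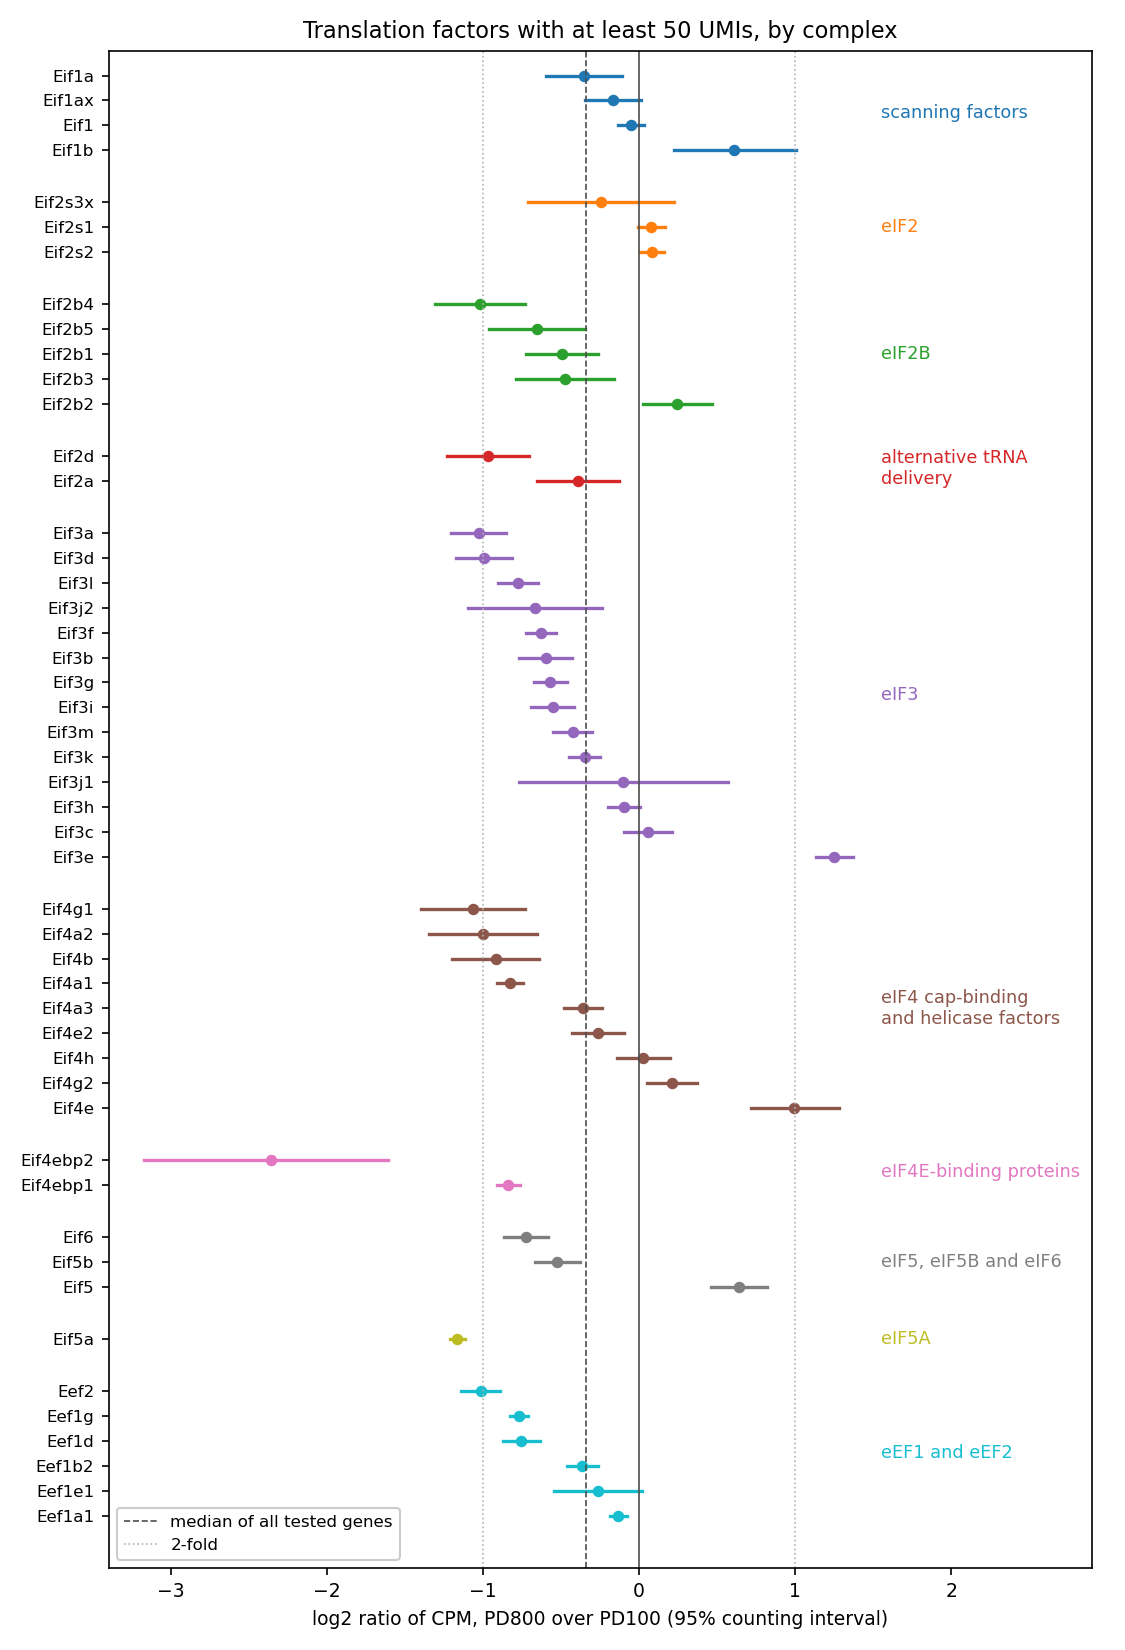
Log2 ratio of CPM, PD800 over PD100, for the 49 factors with at least 50 UMIs (points) with 95% counting intervals (bars), grouped and coloured by complex. The solid line marks 0, the dashed line the median of all tested genes at -0.34 and the dotted lines a 2-fold difference; most factors lie left of 0, and Eif3e (1.25) and Eif4ebp2 (-2.36) lie at the ends.

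The promoters of several of these genes share a sequence element, which was chosen after the ratios were seen. RefSeq promoter windows on GRCm38.p6, from 250 bases before to 50 bases after an annotated start, were at hand for 43 of the 57 genes. The E-box CACGTG, the sequence bound by Myc with Max and by related helix-loop-helix proteins, reads the same on both strands. It was present in 11 of the 43 (25.6%) and in 8.91% of the 18559 genes with such a window and a column in the tables. Among tested genes the shares were 26.3% of 38 factors and 13.0% of all 5330. The motif was found in 4 of the 6 factors that were at least 2-fold lower in PD800 after scaling to library totals. This stood beside 13.8% of the 907 genes that were so lower and had a window. Relative to the median of all tested genes, those 4 (Eef2, Eif3a, Eif4g1 and Eif5a) lay between -0.82 and -0.67, short of the 2-fold line. The motif was also found in Eif4e, which was higher. Those 6 factors had 1.83 windows each on average, against 1.28 for the 907 genes. The stretches below are shown for those 5 genes and for the helicase gene Eif4a1, each 30 bases on the coding strand of the gene with the E-box in capitals:
Eef2 (chr10:81176576-81176605, plus strand): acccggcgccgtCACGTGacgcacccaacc
Eif3a (chr19:60790654-60790683, minus strand): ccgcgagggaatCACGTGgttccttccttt
Eif4a1 (chr11:69672595-69672624, minus strand): cgatcgcctccgCACGTGtaaaggtgctgg
Eif4e, distal (chr3:138527028-138527057, plus strand): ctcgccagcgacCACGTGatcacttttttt
Eif4e, proximal (chr3:138527192-138527221, plus strand): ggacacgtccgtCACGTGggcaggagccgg
Eif4g1 (chr16:20672661-20672690, plus strand): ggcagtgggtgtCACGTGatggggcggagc
Eif5a (chr11:69921443-69921472, minus strand): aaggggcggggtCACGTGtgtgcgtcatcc

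In these stretches of Eef2, Eif4g1 and Eif5a the motif began 43, 54 and 74 bases before a RefSeq start. In Eif3a it began at base 23 counted from the RefSeq start, which lies upstream of the gene start that GENCODE M21 gives. Eif4g1 and Eif5a each held a further E-box, which is not shown, at base 16 from the same start in Eif4g1 and 178 bases before another start in Eif5a. The tested factors with the motif had a median log2 ratio of -0.73 (10 genes) and those without it -0.38 (28 genes). Over all tested genes the medians were -0.45 with and -0.34 without the motif. Both directions occurred among the factors that hold it, since Eif4e and Eif1b were higher in PD800 and Eif4h was nearly level. Eif5a2, under the 50-UMI limit with 4 UMIs in PD100 and 14 in PD800, also held the motif. The stretches of Eif1b, Eif3f, Eif3k, Eif4h and Eif5a2 are not shown. A match of these letters is a description of the sequence and was not linked to any binding. Ribosomal protein promoters held the E-box in 9.23% of 65 genes. An uninterrupted run of at least 10 C or T within 50 bases on either side of the start was also searched for. It was present in 69.2% of ribosomal protein genes, in 32.6% of the factors and in 20.4% of all genes. A terminal oligopyrimidine messenger RNA opens with a run of C or T, but the search did not require the run to lie at the start.

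Among the scanning factors, Eif1 stood at a similar level in the 2 libraries and Eif1b was higher in PD800. Eif1, which guards start codon selection, had 2116 UMIs in PD100 and 2885 in PD800, or 1159 and 1118 CPM, a log2 ratio of -0.05 (-0.13 to 0.03). Its close relative Eif1b had 83 and 179 UMIs, or 45.4 and 69.4 CPM, a log2 ratio of 0.61 (0.23 to 1.00). Both genes for eIF1A were slightly lower by value in PD800, with log2 ratios of -0.35 (-0.60 to -0.11) for Eif1a and -0.17 (-0.35 to 0.02) for Eif1ax. The sum over the 4 scanning factors gave a log2 ratio of -0.07 (-0.14 to -0.00), which turned to 0.27 with median-of-ratios scaling, as those of Eif1 (0.29) and Eif1ax (0.18) did.

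The alpha and beta subunit genes of eIF2 had log2 ratios above the median of all tested genes. Its exchange factor eIF2B, summed, lay -0.05 relative to that median. Eif2s1, the alpha subunit that stress kinases phosphorylate, was at 986 CPM (941 to 1033) in PD100 and 1042 CPM (1003 to 1082) in PD800. Eif2s2, the beta subunit, was at 1185 and 1255 CPM. Their log2 ratios were 0.08 (-0.01 to 0.17) for Eif2s1 and 0.08 (0.00 to 0.16) for Eif2s2. The gamma subunit is coded by a gene pair on the sex chromosomes. Eif2s3x had 73 and 87 UMIs (log2 ratio -0.25, -0.71 to 0.22) and Eif2s3y, under the 50-UMI limit, had 22 and 8 (log2 ratio -1.96, -3.34 to -0.74). For eIF2B, the GTP exchange factor that recharges eIF2, 4 of 5 subunit genes were lower in PD800. Against the median of all tested genes, the intervals of 2 of the 5 lay below it and that of 1 above it. Eif2b4, which codes for a regulatory subunit, had 245 UMIs in PD100 and 171 in PD800 (134 and 66.3 CPM, log2 ratio -1.02, -1.31 to -0.73). The catalytic subunit gene Eif2b5 had 186 and 167 UMIs and a log2 ratio of -0.65 (-0.96 to -0.35), while Eif2b2 was at 147 and 174 CPM and 0.25 (0.02 to 0.47). Summed, eIF2B gave -0.39 (-0.51 to -0.28) and eIF2 gave 0.07 (0.01 to 0.13). Eif2a and Eif2d, which deliver tRNA to the ribosome outside the eIF2 pathway, had log2 ratios of -0.39 (-0.65 to -0.13) and -0.97 (-1.23 to -0.70).

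The eIF3 complex, the largest initiation factor, did not differ evenly over its subunits. Eif3e (chr15:43250058-43282719, minus strand, GRCm38), a subunit of the peripheral part of the complex, had 773 UMIs in PD100 and 2600 in PD800. Its level was 423 CPM (394 to 454) and 1007 CPM (969 to 1047), so that the log2 ratio was 1.25 (1.13 to 1.37). No other eIF3 subunit came near this value: Eif3c was next at 0.06 (-0.10 to 0.21), followed by Eif3h at -0.10 (-0.20 to 0.00). At the other end, Eif3a (chr19:60761117-60790658, minus strand), whose promoter stretch is shown above, had 645 UMIs in PD100 and 447 in PD800. It stood at 353 CPM (326 to 382) and 173 CPM (158 to 190), with a log2 ratio of -1.03 (-1.21 to -0.85). Eif3d, the subunit that can itself bind a cap, had 603 and 428 UMIs and a log2 ratio of -0.99 (-1.18 to -0.81). The remaining 9 subunit genes lay between -0.78 for Eif3l and -0.10 for Eif3j1.

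The summed eIF3 ratio depended on Eif3e. With Eif3e the 14 genes gave -0.30 (-0.33 to -0.26; 0.045 with median-of-ratios scaling), and without it the other 13 gave -0.49 (-0.53 to -0.46). Within eIF3, Eif3e held 6.21% (5.79 to 6.64) of UMIs in PD100 and 18.1% (17.5 to 18.8) in PD800, while the share of Eif3a was 5.18% (4.80 to 5.58) and 3.12% (2.84 to 3.42). These shares do not depend on how the libraries are scaled. Eif3e transcripts share 13.3% of their 25-base words with other genes of a GENCODE M21 transcriptome, and 8.20% of its words with the pseudogene Eif3s6-ps2, so reads of such copies could be counted with it. For Eif3a the shared part was 0.240%. Eif3j1 and Eif3j2 cannot be separated well, since 95.1% of the words of Eif3j2 occur in Eif3j1.

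Among the factors that bind the cap, Eif4e was higher in PD800 and its partners and inhibitors were mostly lower. Eif4e (chr3:138526179-138559696, plus strand), the cap-binding protein itself, had 142 UMIs in PD100 and 400 in PD800, or 77.8 CPM (65.5 to 91.6) and 155 CPM (140 to 171). Its log2 ratio was 1.00 (0.72 to 1.28), a ratio of 1.99 just under the 2-fold line. Eif4ebp1, an inhibitor of eIF4E that mTORC1 switches off, had 3276 and 2591 UMIs, or 1794 CPM (1733 to 1856) and 1004 CPM (966 to 1043), with a log2 ratio of -0.84 (-0.91 to -0.76). The second inhibitor, Eif4ebp2 (chr10:61428491-61452661, minus strand), had 69 UMIs in PD100 and 19 in PD800. It gave the lowest ratio of the tested factors, -2.36, with a wide interval (-3.18 to -1.61) that these counts set. Eif4e made up 4.07% (3.44 to 4.78) of the UMIs of Eif4e and the 4E-binding proteins in PD100 and 13.3% (12.1 to 14.6) in PD800.

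The scaffold and helicase genes of the cap-binding complex were lower in PD800, and a scaffold homologue was not. Eif4g1 (chr16:20668313-20692884, plus strand), the main scaffold, had 188 UMIs in PD100 and 127 in PD800, or 103 and 49.2 CPM, a log2 ratio of -1.06 (-1.40 to -0.73). Eif4g2, which lacks the part that binds eIF4E, was at 279 CPM (256 to 305) in PD100 and 323 CPM (302 to 346) in PD800 (log2 ratio 0.21, 0.05 to 0.37). The helicase genes Eif4a1 and Eif4a2 had log2 ratios of -0.83 (-0.91 to -0.75) and -0.998 (-1.35 to -0.65). Eif4a2 had a ratio of 0.501 and so also lay just short of the line. Eif4b, which stimulates the helicase, gave -0.92 (-1.20 to -0.64), while Eif4h, which does the same, gave 0.03 (-0.14 to 0.20). Eif4a3, a helicase of the exon junction complex rather than of initiation, and the cap-binding homologue Eif4e2 had -0.36 (-0.48 to -0.24) and -0.26 (-0.43 to -0.10), the latter turning to 0.077 with median-of-ratios scaling. The 12 genes of this group summed to -0.44 (-0.49 to -0.39).

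The factors of subunit joining split as well. Eif5, the GTPase-activating protein for eIF2, had 367 UMIs in PD100 and 807 in PD800, or 201 CPM (181 to 223) and 313 CPM (291 to 335), with a log2 ratio of 0.64 (0.46 to 0.82). Eif5b, the GTPase that joins the subunits, was at 440 and 306 CPM with a log2 ratio of -0.52 (-0.67 to -0.38). Eif6, which keeps the large subunit apart and acts in its maturation, was at 505 CPM (473 to 539) and 306 CPM (285 to 328), with -0.73 (-0.86 to -0.59).

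Eif5a (chr11:69916714-69921958, minus strand) had the most UMIs of the factors in PD100. It had 8732 UMIs in PD100 and 5503 in PD800, or 4781 CPM (4682 to 4883) and 2132 CPM (2076 to 2189). The log2 ratio of Eif5a, -1.17 (-1.21 to -1.12), is -0.82 relative to the median of all tested genes. Eif5a held 15.7% (15.4 to 16.0) of all factor UMIs in PD100 and 9.60% (9.36 to 9.84) in PD800. Its promoter stretch with an E-box is shown above. The enzymes that make hypusine on eIF5A were lower too: Dhps, deoxyhypusine synthase, had 215 UMIs in PD100 and 99 in PD800 and a log2 ratio of -1.62 (-1.98 to -1.27), and Dohh, deoxyhypusine hydroxylase, had 345 and 207 UMIs and -1.24 (-1.49 to -0.98). Dohh was singled out after its values were seen, as the second enzyme of this step. Eif5a2, the second eIF5A gene, had 4 UMIs in PD100 and 14 in PD800.

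All 6 tested elongation factors had a log2 ratio below 0, by very different amounts, and with median-of-ratios scaling Eef1a1 (0.21) and Eef1e1 (0.075) lay above 0. Against the median of all tested genes, the intervals of 3 of the 6 lay below it and that of 1 above it. Eef1a1, which delivers aminoacyl-tRNAs, was at 2678 CPM (2604 to 2754) in PD100 and 2440 CPM (2380 to 2501) in PD800, and its log2 ratio, -0.13 (-0.19 to -0.08), lay above the median of all tested genes. The exchange factor subunits were lower. Eef1g had 5087 UMIs in PD100 and 4217 in PD800 and a log2 ratio of -0.77 (-0.83 to -0.71), Eef1d gave -0.75 (-0.87 to -0.63), and Eef1b2 gave -0.36 (-0.46 to -0.26). Eef1a1 therefore made up 38.1% (37.3 to 39.0) of the UMIs of Eef1a1, Eef1b2, Eef1d and Eef1g in PD100 and 47.3% (46.4 to 48.2) in PD800. The translocase Eef2 (chr10:81176631-81182498, plus strand) had 1232 UMIs in PD100 and 861 in PD800, or 675 CPM (637 to 713) and 334 CPM (312 to 357), with a log2 ratio of -1.02 (-1.14 to -0.89). Eef1e1, which sits in the multi-synthetase complex, was at -0.27 (-0.55 to 0.02). Eef1a1 and Eef1g share 52.0% and 48.8% of their 25-base words with other genes of the transcriptome, mostly genes without a column in the tables, so their counts are less certain than those of Eef2 (28.7%) or Eif5a (10.9%).

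Shares within pairs of related genes compare the libraries without any scaling. Besides those above, Eif4g2 took 73.1% (69.6 to 76.3) of the UMIs of Eif4g1 and Eif4g2 in PD100 and 86.8% (84.5 to 88.9) in PD800. Eif4e2 held 79.3% (76.0 to 82.2) of Eif4e and Eif4e2 in PD100 and 61.5% (58.5 to 64.5) in PD800. Eif1b took 3.77% (3.02 to 4.66) of its pair with Eif1 in PD100 and 5.84% (5.04 to 6.73) in PD800. Eef2 held 20.1% (19.1 to 21.1) of Eef2 and Eef1a1 in PD100 and 12.03% (11.3 to 12.8) in PD800. Intervals overlapped for Eif1ax with Eif1a (63.2% and 66.2%), for Eif4a2 with Eif4a1 (5.83% and 5.21%), and for Eif3j2 with Eif3j1 (74.1% and 65.9%). For Eif2s3y with Eif2s3x the shares were 23.2% (15.1 to 32.9) and 8.42% (3.71 to 15.9), from 95 UMIs in each library, and the intervals overlapped slightly.

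**Figure D2:**
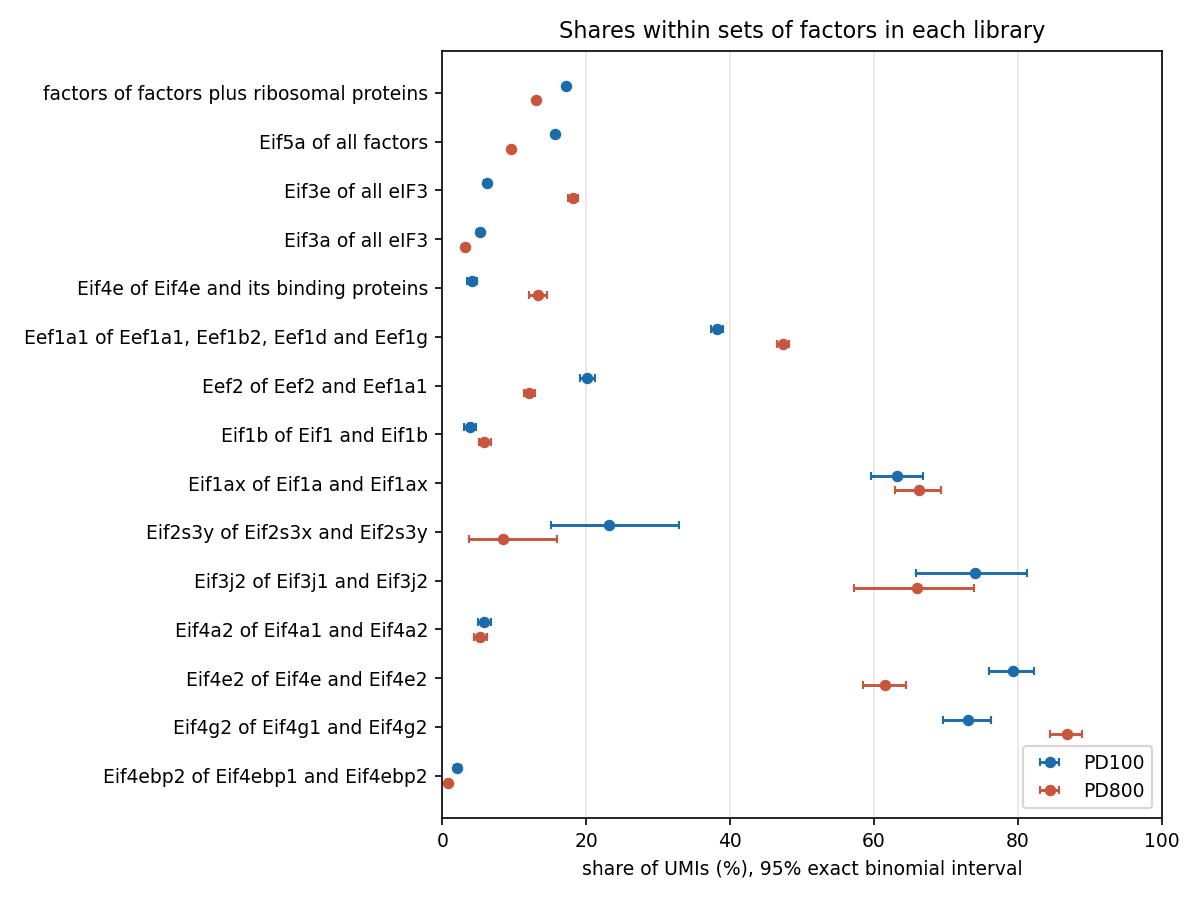
Share of UMIs in percent (points) with 95% exact binomial intervals (bars) for the first named gene or group of each set, in PD100 (blue) and PD800 (red). Eif3e of eIF3 stood at 6.21% and 18.1% and Eif5a of all factors at 15.7% and 9.60%, while the intervals of Eif4a2 and of the Eif1a, Eif2s3 and Eif3j pairs overlapped.

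The 7 genes with 1 to 49 UMIs were related copies of better detected factors. Eef1a2, a form of eEF1A known from muscle and nerve, had 2 UMIs in PD100 and 1 in PD800. Eif4e1b, a germ line relative of Eif4e, had 0 and 1 UMI, Eif4e3 had 0 and 2, and Eif4ebp3 had 1 and 0. Eif4g3, a scaffold related to Eif4g1, had 18 and 25 UMIs. Counts of this size show no difference for Eef1a2, Eif4e1b, Eif4e3, Eif4ebp3 and Eif4g3 that exceeds counting error. Eif5a2 and Eif2s3y, the other members of this set, are given with their pairs.

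How evenly the factors differed over cells was examined at equal depth, by drawing 1000 UMIs from every cell that was kept. The factors then had a median of 30 UMIs per cell in PD100 (5th to 95th percentile 21 to 41) and 22 in PD800 (14 to 32). A count of 30 or more was found in 447 PD100 cells (54.9%) and in 89 PD800 cells (9.89%). The distributions overlapped. For Eif5a the median was 5 UMIs in PD100 and 2 in PD800. An Eif5a UMI was present in 99.0% (98.1 to 99.6) of PD100 cells and 86.3% (83.9 to 88.5) of PD800 cells, and without thinning in 99.8% and 97.2%. Eif3e went the other way, with 29.0% (25.9 to 32.2) of thinned PD100 cells and 60.0% (56.7 to 63.2) of thinned PD800 cells, against 44.3% and 83.9% without thinning. Eif4e had a UMI in 5.28% (3.85 to 7.05) and 13.3% (11.2 to 15.7) of thinned cells, and Eef2 in 45.6% (42.1 to 49.1) and 27.1% (24.2 to 30.1). For Eef1a1 the shares were 88.9% and 89.8%. Most of these genes are needed in every cell type, so no cell type could serve to measure free RNA. In the same thinned cells the median of mitochondrially encoded UMIs was 12 in PD100 and 45 in PD800. With totals that leave out mitochondrially encoded genes, the summed log2 ratio of the factors was -0.41 rather than -0.46.

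**Figure D3:**
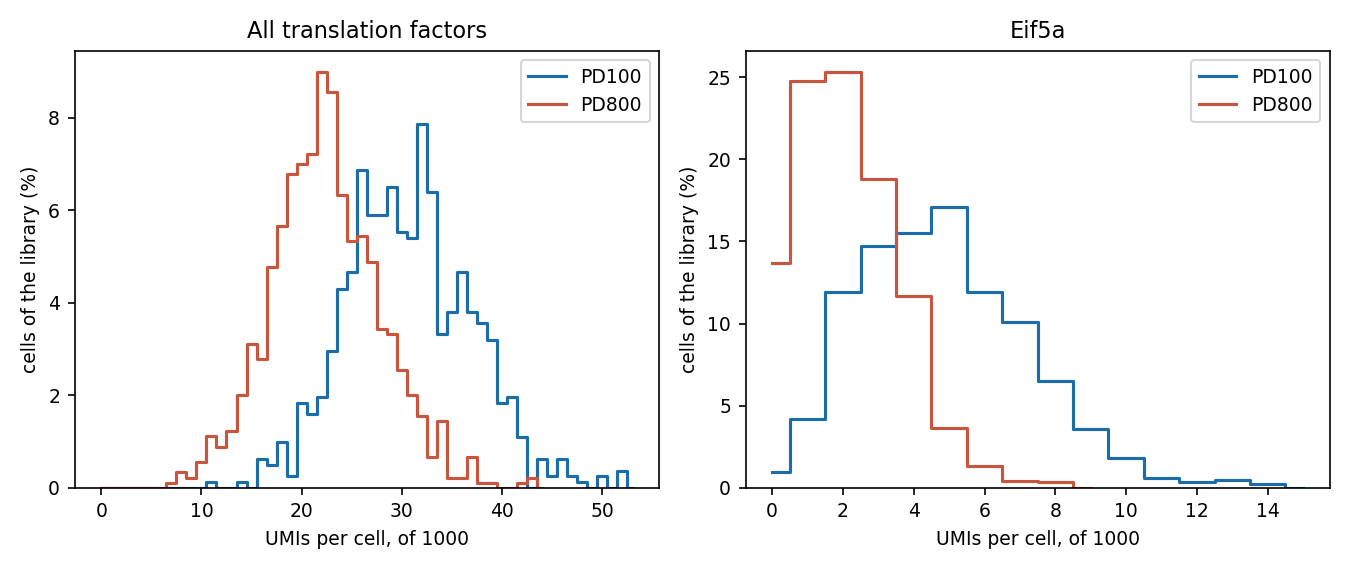
Percent of cells of each library (y axis) by the number of UMIs per cell after thinning to 1000 UMIs (x axis), for all factors (left) and Eif5a (right), in 814 PD100 cells (blue) and 900 PD800 cells (red). The PD800 curves lie to the left, with medians of 22 against 30 UMIs for all factors and 2 against 5 for Eif5a.

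The difference between the libraries was present at every depth of barcode, and the level of Eif3e in PD800 depended on that depth. Over all barcodes, including those under the limit of 1000 UMIs, the factors ranged from 30189 to 31701 CPM over 5 depth classes in PD100 and from 22062 to 24806 CPM in PD800. Eif5a ranged from 4629 to 4905 CPM and from 1720 to 2184 CPM. In PD800, Eif3e was at 2620 CPM (2334 to 2932) in barcodes under 500 UMIs and 2149 CPM (1994 to 2312) in those with 500 or more but under 1000, but between 998 and 1049 CPM in the 3 deeper classes. In PD100 it lay between 386 and 482 CPM in all classes. The mitochondrially encoded share in PD800 was 4.73% under 500 UMIs, 7.56% between 500 and 1000 UMIs and 4.44% to 5.79% in the deeper classes. The part of the mitochondrially encoded share in the level of Eif3e was not tested.

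**Figure D4:**
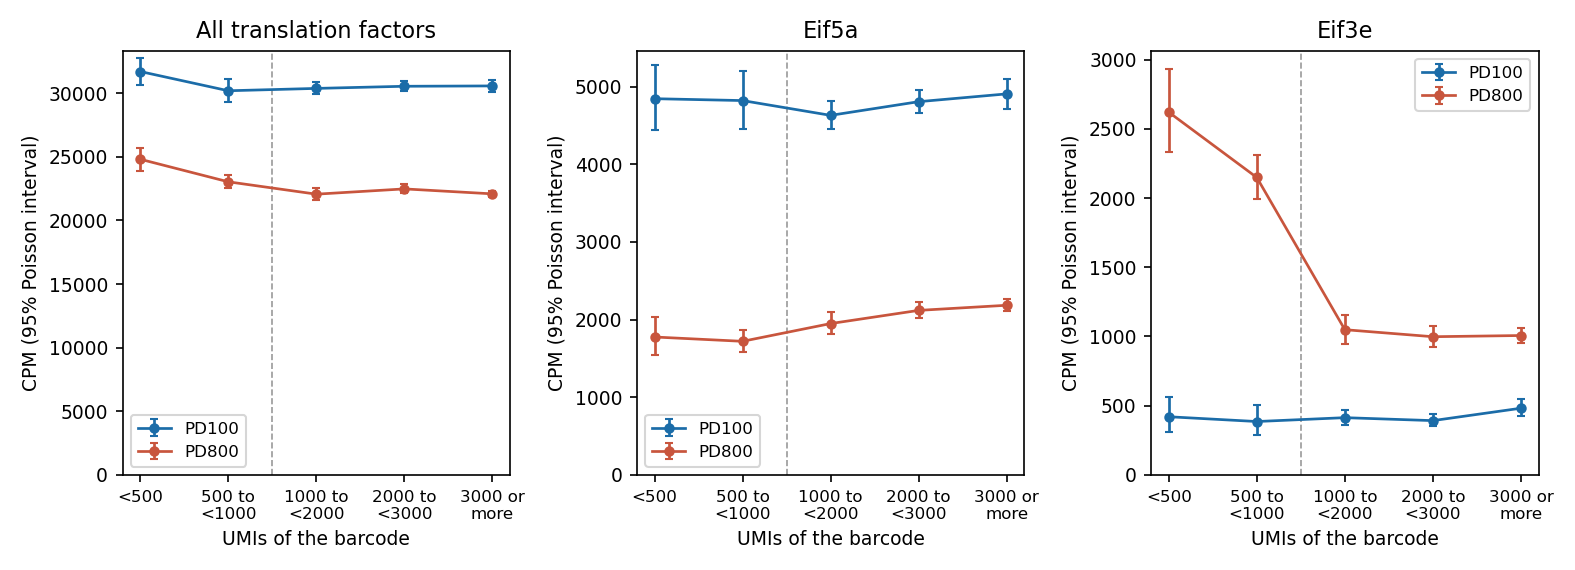
CPM (y axis, 95% Poisson intervals) of all factors, Eif5a and Eif3e in barcodes grouped by their total UMIs (x axis), in PD100 (blue) and PD800 (red). The dashed line marks the limit of 1000 UMIs for cells that were kept; Eif3e in PD800 stood at 2620 and 2149 CPM left of it and near 1000 CPM to the right.

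PD100 held more cells with markers of extraembryonic endoderm, a lineage that embryonic stem cells can give rise to. The 16 marker genes summed to 1159 CPM in PD100 and 159 CPM in PD800, with 2 of them, Gata6 and Srgn, at 0 in PD800, and 63 PD100 cells but 5 PD800 cells had at least 5 of their UMIs. In those 63 cells all factors together stood at 28494 CPM (27704 to 29301), against 30710.3 CPM (30444 to 30979) in the other PD100 cells, and Eif5a at 4655 CPM against 4795 CPM. Without the cells that hold these markers the summed log2 ratio of the factors was -0.47, that of Eif5a -1.17 and that of Eif3e 1.22, and 9 factors (18.4%) were at least 2-fold lower, beside 16.1% of all tested genes under that setting, with 1 (2.04%) at least 2-fold higher, beside 9.49%. The 10 feeder fibroblast markers summed to 33.4 CPM and 15.1 CPM. A barcode found in both libraries was carried by 14 kept PD100 cells and 12 kept PD800 cells, and without them the summed log2 ratio was -0.46.

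Other lists of the translation apparatus were described in the same way. The 22 aminoacyl-tRNA synthetases and partners, all tested, had a median log2 ratio of -0.47, with 5 (22.7%) at least 2-fold lower, beside 16.9% of all tested genes, and 0 at least 2-fold higher, beside 9.22%. Eprs, the glutamyl-prolyl-tRNA synthetase, had 766 and 426 UMIs (-1.35, -1.52 to -1.17) and Mars, the methionyl one, 219 and 124 (-1.32). Hars had 243 and 512 UMIs (0.58, 0.35 to 0.80), and Aimp1, a scaffold of the multi-synthetase complex, gave 0.25. Regulators of the factors had a median of -0.77, with 5 of 15 tested genes (33.3%) at least 2-fold lower, beside the same 16.9%, and 0 higher, from Dhps (given with Eif5a) and Mknk2, a kinase of eIF4E (-1.29, -2.05 to -0.56), to Paip1 at 0.05 and Paip2, an inhibitor of the poly(A)-binding protein, at 0.26. Termination and recycling factors had a median of -0.12, with 1 of 9 lower (11.1%; Hbs1l, which rescues stalled ribosomes, -1.88) and 1 higher (11.1%; Mcts1, 1.13), while Gspt1 and Abce1 gave -0.66 and 0.66. For the mitochondrial translation factors the median was -0.17, with Gfm2, Tsfm and 1 other of 9 at least 2-fold lower (33.3%; Gfm2 -1.42, Tsfm -1.15), Tufm at -0.00 and Guf1 at least 2-fold higher (1.20).

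Genes of pathways tied to initiation were described as well. The mTORC1 pathway, which acts upstream of initiation, had a median of -0.12 (-0.94 to 0.27), which turned to 0.22 with median-of-ratios scaling. Targets of the integrated stress response, which lie downstream of eIF2 phosphorylation, had a median of -0.93 (-1.48 to -0.20). The intervals, taken over the tested genes of each list, overlapped. Of 14 tested mTORC1 genes, Deptor (-1.21) and Mtor (-1.03) were at least 2-fold lower (14.3%, beside 16.9% of all), and Lamtor4 (0.41) and Rps6kb2 (0.38) were at the upper end. Of 9 tested stress targets 3 were at least 2-fold lower (33.3%, beside 16.9% of all), among them Ddit4, an inhibitor of mTORC1 with 77 UMIs in PD100 and 19 in PD800 (-2.52, -3.33 to -1.78), and Psat1, of serine synthesis (-1.48). Asns and Cebpg gave -0.20 and 0.19. Ribosomal proteins had a median of 0.16, with 10 of 85 (11.8%) at least 2-fold higher, near the 9.22% of all tested genes, led by Rpl36a (2.72) and Rpl10l (2.60), and 4 (4.71%) at least 2-fold lower, beside 16.9% of all, among them Rpl15 (-1.09). The 9 factors known to have a terminal oligopyrimidine messenger RNA, the class to which ribosomal protein messages belong, had a median of -0.63. They ran from Eef2 and Eif4b, given above, to Eif3h and Eif3e.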

How the data were processed

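Single-cell RNA-seq counts of 1 PD100 and 1 PD800 library were analysed. The authors made the deposited counts with the inDrops pipeline, mapping reads to a transcriptome of the mouse GRCm38 (mm10) assembly, as whole numbers of UMIs per barcode and gene. The annotation release is not given in the sources used here. UMIs of barcodes with at least 1000 UMIs and at most 20% mitochondrial UMIs were summed per library and scaled to its total (CPM). This left out 477 of 1291 PD100 and 766 of 1666 PD800 barcodes. Median depth was 2151 and 2701.5 UMIs per cell, which limits what can be said of rare transcripts. Intervals at 95% were exact: Poisson for sums, binomial for shares, and conditional on the total of both libraries for ratios (Clopper-Pearson). UMIs are not scaled by transcript length, so levels were compared between libraries and not between genes. Cells are not replicates, and with 1 library per group no test was made.

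Genes were called tested when the libraries together held at least 50 of their UMIs, and were read against a 2-fold line. Named were the 2 highest and 2 lowest factors of each complex by counting interval, both genes of each pair and, in other lists, the 2 members at either end, of which 1 is not reported here. The members and lists were chosen with earlier results of these data known. Cells were thinned to 1000 UMIs with seed 1. Scrublet, run in Scanpy 1.11.5 at an expected rate of 5%, called 14 PD100 cells (1.72%) and 8 PD800 cells (0.889%) as doublets, which were kept. Gene positions and 25-base words came from GENCODE M21 (GRCm38), promoters from RefSeq (GRCm38.p6). Motifs were chosen after the ratios were seen. The step that gives ratios and their intervals was also checked on counts simulated at known ratios. The other computations were not checked in this way. SciPy 1.17.1, NumPy 2.4.6 and pandas 2.3.3 were used under Python 3.11.15. In all, 11 alternatives were planned and 2 were added after seeing the data.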

Additional observations from a re-analysis of the deposited data

Results flagged for a closer look

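Barcodes that the cell filter left out were not part of the comparison, and the factors differed in the same direction there. In the 477 PD100 and 766 PD800 barcodes left out, all factors together stood at 30859 and 23332 CPM, a log2 ratio of -0.40 (-0.45 to -0.36). For Eif5a, with 1192 PD100 UMIs and 796 PD800 UMIs, the log2 ratio was -1.48 (-1.61 to -1.35). Eif3e had 99 UMIs in PD100 and 1036 in PD800, or 401 CPM (326 to 488) and 2260 CPM (2125 to 2402). The log2 ratio of Eif3e was 2.49 (2.20 to 2.81), against 1.25 in the cells that were kept. These barcodes come from the same libraries and are not independent of the main values.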

How the results depend on the processing

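No paired analysis was possible because each time point had 1 library and no result came from a test. Scaling by the median of ratios over tested genes moved most values. The summed log2 ratio of the factors became -0.12 and their median -0.13. This scaling put 1 factor (2.04%, beside 7.79% of all tested genes) at least 2-fold lower. It put 2 (4.08%, beside 13.9%), Eif3e and Eif4e, at least 2-fold higher. It also turned the medians of the mitochondrial translation factors (0.17), the termination and recycling factors (0.22) and the mTORC1 pathway (0.22) to above 0. The sums of the scanning factors (0.27), eIF3 (0.045) and the group of Eif5, Eif5b and Eif6 (0.031) turned likewise. So did ratios of single factors, among them Eef1a1 (0.21) and Eif4e2 (0.077). The mTORC1 median also lay above 0 with at least 2000 UMIs per cell, and at 0.17 with a minimum of 200 UMIs per gene. Scaling to the total without mitochondrially encoded genes gave a summed ratio of -0.41. With it 3 factors (6.12%, beside 15.0% of all tested genes) were at least 2-fold lower and 2 (4.08%, beside 9.74%) higher. Leaving out doublets gave 2 factors at least 2-fold higher, as the log2 ratio of Eif4e moved to 1.02. Relative to the median of all tested genes, 2 factors were at least 2-fold lower with a minimum of 20 UMIs and 0 with a minimum of 200. The counts without doublets and with other minimums are given without the share of all tested genes, so they describe single factors only. Without Eif5a, an alternative chosen after seeing the data, the summed ratio was -0.36. Of the 49 tested factors, 39 kept the sign of their ratio under all 7 alternatives run for single genes, and the 10 that did not had log2 ratios between -0.27 and 0.06, of which 8 turned with the median of ratios. Of the 100 values for shares within pairs under alternatives, 99 stayed within the counting interval of the reported share, as did 66 of 70 for the larger sets, which were run after seeing the data. With no filter on barcodes Eif3e made up 20.7% of eIF3 and Eif5a 9.26% of all factors in PD800. The depth of these libraries limits the ratios of factors with few UMIs, such as Eif4ebp2, and with 1 library per time point no error between cultures is known.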
